A study of Mus musculus with 8 samples.

Results

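The direct comparison described here sets mouse hepatocytes lacking the inducible heme oxygenase, HO1, against hepatocytes in which the constitutive heme oxygenase, HO2, was knocked down. It uses 4 of the 8 whole-transcript arrays of the study, chosen by their titles: 2 arrays of HO1-/- cells that received a scrambled short hairpin RNA (shRNA), called HO1 knockout, and 2 arrays of HO1+/+ cells that received an shRNA against HO2, called HO2 knockdown. The other 4 arrays are the control (HO1+/+ with the scrambled shRNA, 2 arrays) and the combined group (HO1-/- with the HO2 shRNA, 2 arrays), and they serve as context. Hepatocytes, the parenchymal cells of the liver, came from male BALB/c mice of an age not given in the sources used here. Cells of all 4 groups were transduced with a lentivirus in the presence of protamine sulfate, moved to puromycin after 24 h, exposed to 1 µM dexamethasone for 30 min after 3 days, and harvested 28 h after that pulse. Every group therefore carries a lentiviral insertion and has met puromycin and a glucocorticoid, and the groups differ in the HO1 genotype and in the hairpin. HO2 was targeted with 1 hairpin, while HO1 was absent from the germline. Genotype, hepatocyte preparation and any other effect of that hairpin cannot be told apart in this comparison.

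Heme oxygenases open the heme ring and release carbon monoxide, iron and biliverdin, which biliverdin reductases turn into bilirubin. HO1, encoded by Hmox1, is switched on by heme and by oxidative stress and is abundant in the macrophages that recycle red cells, whereas HO2, encoded by Hmox2, is made steadily in most tissues. Heme is also a ligand of the clock repressors REV-ERB alpha and beta, and carbon monoxide can bind heme in clock transcription factors, which links heme breakdown to the circadian clock of the liver.

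Signals are log2 values of the robust multi-array average (RMA), each difference is HO1 knockout minus HO2 knockdown, and a gene passed when limma's adjusted p was under 0.05. The array medians ran from 7.61 to 7.70, and replicate arrays correlated at 0.997 to 0.999 over all genes. HO1 knockout arrays correlated with HO2 knockdown arrays at 0.975 to 0.976, against up to 0.989 for arrays of other different groups. The labels call the replicates biological without saying that they stem from different animals or cultures. The p-values therefore measure only how far these samples spread, which may be technical. With 2 arrays a group, the number of arrays limits the precision. The samples are labelled as hepatocytes, and of 23 hepatocyte markers the summed linear signal was 79117 to 79670 in HO1 knockout and 119551 to 123652 in HO2 knockdown. Macrophage markers stood apart by genotype: their summed linear signal over 21 genes was 35896 to 36695 in HO1 knockout and 36788 to 38896 in the combined arrays, but 4299 to 4492 in HO2 knockdown and 4788 to 5048 in control. On arrays of total RNA, fewer cells of a type and less RNA per cell cannot be told apart.

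Hmox2, the target of the hairpin, checks the knockdown label. It read 11.59 and 11.60 in the HO1 knockout arrays and 8.32 and 8.38 in the HO2 knockdown arrays. The groups did not overlap, and the difference was 3.24 ± 0.065 (SE, n = 2 and 2; adjusted p = 4.71e-15), or 9.46-fold. In the control arrays Hmox2 read 11.41 and 11.57, so HO1 knockout lay close to the control (0.11, not passed) and HO2 knockdown far below it (-3.14). Hmox1 read 11.98 and 11.97 in the arrays labelled HO1 knockout, 11.54 and 11.57 in HO2 knockdown, 11.46 and 11.40 in control, and 12.40 and 12.47 in the combined arrays. The Hmox1 probe set was thus higher, not lower, in the arrays labelled as its knockout (0.42 ± 0.046, adjusted p = 2.35e-06). The labels do not say which part of the gene was removed, and a probe set outside the removed part checks nothing, so the HO1 genotype rests on the labels alone, here and wherever a direction is drawn from HO1 knockout.

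Both enzymes downstream of the heme oxygenases were also higher in HO1 knockout. Blvra, which reduces biliverdin to bilirubin IX alpha, read 9.11 and 9.10 against 8.28 and 8.32 in HO2 knockdown. This difference of 0.81 (adjusted p = 5.07e-07) combined a value of 0.67 for HO1 knockout against control, which passed, and -0.14 for HO2 knockdown against control, which did not. Blvrb, which reduces flavins and other biliverdin isomers, differed by 0.27 (adjusted p = 0.000472). For Blvrb both groups lay below control, HO1 knockout by -0.34 and HO2 knockdown by -0.61. The plot of the heme oxygenases and biliverdin reductases shows these values array by array.

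**Figure D1:**
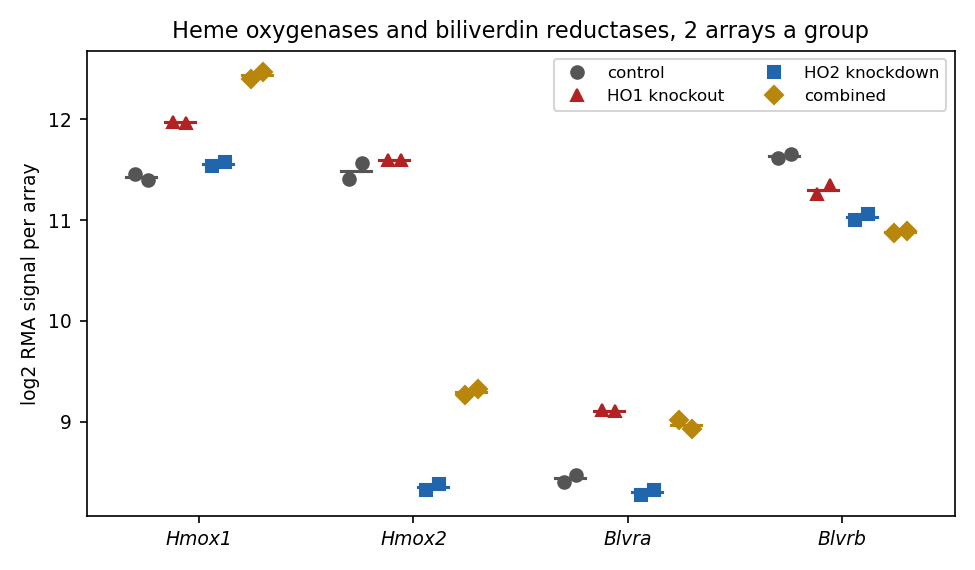
Log2 RMA signal of Hmox1, Hmox2, Blvra and Blvrb on each of the 8 arrays, 2 points a group with a line at the group mean. Hmox2 sits between 8.32 and 8.38 in HO2 knockdown and at 11.59 and 11.60 in HO1 knockout, whereas Hmox1 is higher in HO1 knockout than in HO2 knockdown.

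Genes near Hmox1 travel with a knockout allele when it is bred into another strain, and so its neighbourhood was counted. Within 5 Mb of Hmox1 on chromosome 8, 19 of 108 genes were higher and 26 lower in HO1 knockout, 41.7% in all, against 36.6% (7295 of 19938) of all genes tested. The median difference of these neighbours was -0.0042. Of the 108 neighbours 3 passed with at least a 2-fold difference, against 3.45% of all genes. They were Ifi30, a lysosomal thiol reductase of antigen-presenting cells (1.02), Lrrc25, a leucine-rich repeat protein of myeloid cells (1.68), and Pde4c, a cyclic AMP phosphodiesterase (-1.05). Against control, 11.1% of the neighbours passed in HO1 knockout and 39.8% in HO2 knockdown, where 12.8% and 33.2% of all genes did.

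Over all genes, 3106 were higher (15.6%) and 4189 lower (21.0%) in HO1 knockout than in HO2 knockdown. These shares are the background for each list count of the direct comparison. Arrays of the 2 groups did not overlap for 13943 genes (69.9%), so lack of overlap alone says little here. At least 2-fold differences were found for 687 genes (3.45%), of which 392 (1.97%) were higher and 295 (1.48%) lower in HO1 knockout. The median over all genes was 0.0307. For context, 12.8% of genes passed in HO1 knockout against control and 33.2% in HO2 knockdown against control. These comparisons share the control arrays, and each of them shares a group with the direct one, so their values are given only side by side.

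The large differences in the 2 directions had different values against control. The 392 genes at least 2-fold higher had a median of 1.57 in the direct comparison, 1.22 in HO1 knockout against control and -0.29 in HO2 knockdown against control. Of them 318 were higher and 13 lower in HO1 knockout against control (background 5.62% and 7.20% of all genes), while 14 were higher and 200 lower in HO2 knockdown against control (16.5% and 16.7%). The 295 genes at least 2-fold lower had a median of -1.34 in the direct comparison, -0.15 in HO1 knockout against control and 1.18 in HO2 knockdown against control. Of these 35 were higher and 113 lower in HO1 knockout, and 285 were higher and 0 lower in HO2 knockdown. Genes were picked here by the direct comparison, which fixes part of these values, so the counts are a description.

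Macrophage markers had the highest median of the 43 gene lists. Of 21 Kupffer cell and macrophage markers, genes of the resident and recruited phagocytes of the liver, 17 were higher and 1 lower in HO1 knockout, with a median of 2.46 against 0.0307 over all genes. Their medians were 2.42 in HO1 knockout against control and -0.09 in HO2 knockdown against control. Adgre1, the F4/80 antigen of macrophages, read 11.19 and 11.21 in HO1 knockout and 6.43 and 6.60 in HO2 knockdown. The groups lay 4.69 ± 0.10 apart (adjusted p = 9.38e-15), and the control arrays, at 6.43 and 6.67, sat with HO2 knockdown. Lyz2, the lysozyme of macrophages and neutrophils, read 13.26 and 13.25 against 8.64 and 8.93 (4.47, adjusted p = 2.11e-15). The mannose receptor gene Mrc1 read 10.49 and 10.44 against 6.43 and 6.57 (3.97). In the combined arrays Adgre1 read 9.80 and 10.02, Lyz2 13.34 and 13.42 and Mrc1 10.50 and 10.42, so the 2 groups of HO1-/- cells were both high.

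The markers did not all move together. Itgam (4.01), the signalling adaptor gene Tyrobp (3.94), the complement subunit genes C1qb (3.79), C1qc (3.10) and C1qa (1.85), Ms4a7 (3.69), the myeloid transcription factor gene Spi1 (3.65), Cd68 (2.55) and the growth factor receptor gene Csf1r (2.46) all passed. Vsig4, a complement receptor of resident Kupffer cells, went the other way, at 6.24 and 6.47 in HO1 knockout against 7.56 and 7.24 in HO2 knockdown (-1.05, adjusted p = 8.07e-06). All 4 of these Vsig4 signals lay below the array medians, so the size is uncertain. Further genes of resident macrophages, Clec4f (0.30, adjusted p = 0.0544), Cd163 (0.15) and Timd4 (-0.05), did not pass. Their signals lay between 6.19 and 7.39 in these 4 arrays, below the array medians. Marco, a scavenger receptor, passed at 0.44, but not without HO1 knockout replicate 2 (0.33, adjusted p = 0.0948) or HO2 knockdown replicate 1 (0.34, adjusted p = 0.099).

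Of 12 markers of recruited monocytes and dendritic cells 2 were higher, against 15.6% of all genes: F13a1, the coagulation factor XIII A chain made by monocytes and macrophages (3.67), and Itgax (0.35). The count was 1 without either HO1 knockout replicate or without HO2 knockdown replicate 1. Neutrophil markers were higher for 5 of 14, the collagenase gene Mmp8 (5.15), the gelatinase gene Mmp9 (1.52), the cytokine receptor gene Csf3r (0.73), S100a8 (0.62) and Lcn2 (0.23), while Ly6g (0.11), Mpo (0.14), Elane (0.05) and Cxcr2 (0.01) did not pass. The count was 3 among genes with a mean log2 signal of at least 7. The summed linear signal of the neutrophil list was 21606 to 22598 in HO1 knockout, 15810 to 16147 in HO2 knockdown and 18201 to 18858 in control. Without Lcn2 and Mmp8 it was 2334 to 2350, 1274 to 1311 and 2398 to 2482 in the same order, so HO1 knockout then lay just below control. Lymphocyte markers passed for 2 of 15 (13.3%), fewer than the 36.6% of all genes that passed. These were Il7r (2.60), the interleukin 7 receptor, and Cd79b (0.54), and the T cell receptor genes Cd3d (0.02) and Cd3e (0.09) did not pass. Of 4 erythroid markers measured Klf1 (0.27) passed, and none did without any one of the 4 compared arrays or either combined array.

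Endothelial and stellate markers divided. The shares of all genes, for the counts that follow, were 15.6% higher and 21.0% lower. Of 17 sinusoidal endothelial markers 3 were higher and 5 lower, with a median of 0.03 and a summed linear signal of 5938 to 5990 in HO1 knockout against 3864 to 3994 in HO2 knockdown. The Fc receptor gene Fcgr2b read 10.36 and 10.30 against 7.77 and 7.79 (2.55), and the scavenger receptor gene Stab1 read 10.59 and 10.60 against 8.12 and 8.19 (2.44). Without these genes the summed signal was 3083 to 3176 in HO1 knockout and 3369 to 3480 in HO2 knockdown. Egfl7 (0.33) was the third higher gene, and it did not pass without HO2 knockdown replicate 1 (0.30, adjusted p = 0.0521). The lower ones were Clec4g (-0.66), whose probe sets differed in sign, Bmp2 (-0.63), the junction gene Cdh5 (-0.53), Eng (-0.48) and Emcn (-0.37). Emcn did not pass without HO1 knockout replicate 1 (-0.25) or HO2 knockdown replicate 2 (-0.30). Pecam1 (0.14), Kdr (0.24) and Stab2 (0.02) did not pass either. Of 20 stellate cell and fibroblast markers 2 were higher and 10 lower, with a median of -0.32 and a summed linear signal of 26474 to 27100 in HO1 knockout against 29240 to 30018 in HO2 knockdown. The higher ones were Timp1 (1.00) and Dcn (0.51). Lower genes included Postn (-1.25), Lum (-1.03), Des (-0.92), Sparc (-0.92) and Acta2 (-0.76), whereas the collagen genes Col1a1 (-0.16), Col1a2 (-0.17) and Col3a1 (-0.05) did not pass. Of 9 cholangiocyte markers Muc1 (0.28) and Cftr (0.32) were higher and Krt7 (-0.60) and Tspan8 (-0.61) lower, and the higher count was 0 without either HO2 knockdown replicate and 1 without any one of the HO1 knockout or combined arrays. The part of these other cell types in any result was not tested.

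The plot of the largest differences shows how the extreme genes sit on all 8 arrays. Rnase2a, a secreted ribonuclease of myeloid cells, read 12.65 and 12.65 in HO1 knockout and 7.11 and 7.47 in HO2 knockdown, a difference of 5.35 (adjusted p = 5.84e-15). Mmp8 read 11.43 and 11.34 against 6.03 and 6.43. Ms4a6d, a membrane protein of macrophages, read 12.21 and 12.08 against 6.89 and 7.17 (5.12). None of these groups overlapped. Against control the HO2 knockdown arrays stood at -0.21, -0.52 and -0.52 for these 3 genes, so nearly all of each difference lay on the HO1 knockout side. The others of the 15 largest were Ms4a6c (4.92), the tetraspanin gene Cd53 (4.73), platelet factor 4 (Pf4, 4.73), Lilr4b (4.68), the complement C3a receptor gene C3ar1 (4.59), Ms4a4a (4.50), the Fc receptor gamma chain gene Fcer1g (4.25), Wfdc17 (4.22), the inhibitory receptor gene Lilrb4a (4.21) and Igsf6 (4.20), with Adgre1 and Lyz2. Ms4a6c and Ms4a6d, and Lilr4b and Lilrb4a, are close paralogs whose probes may cross-hybridise, so their separate values are uncertain.

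**Figure D2:**
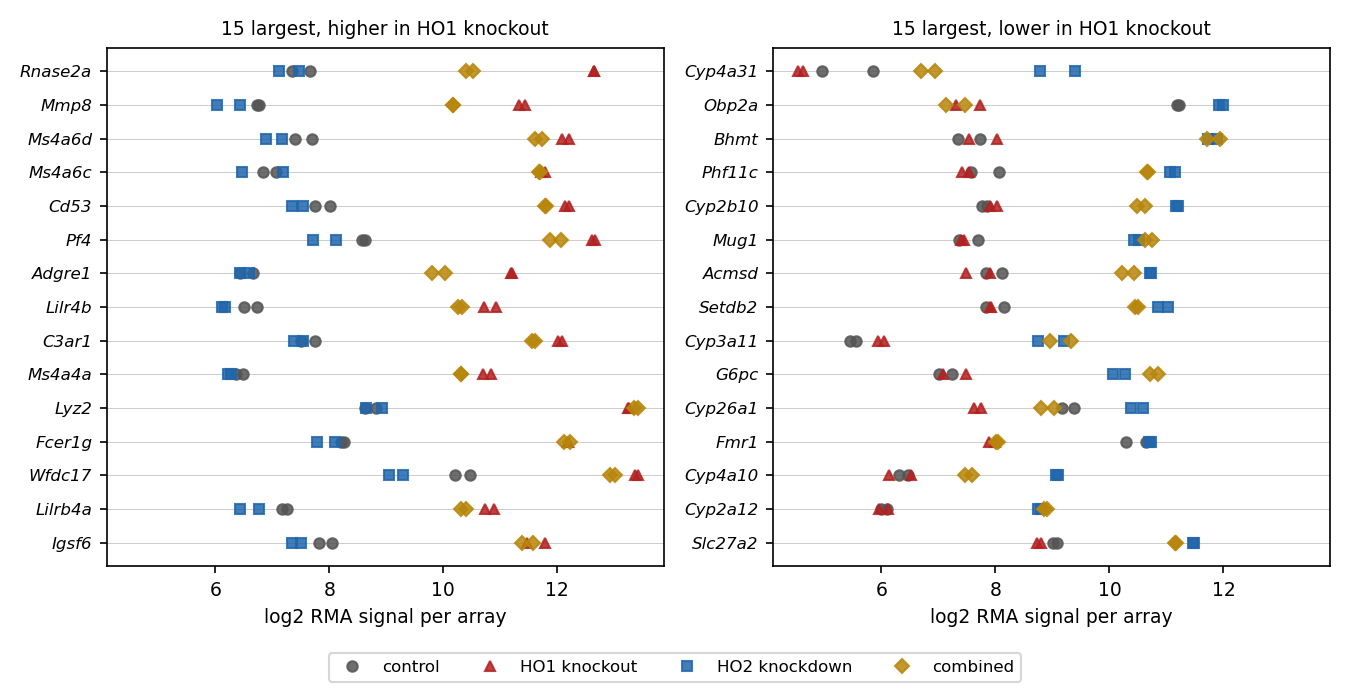
Log2 RMA signal per array of the 15 genes with the largest differences in each direction, among genes that passed and whose HO1 knockout and HO2 knockdown arrays do not overlap. In the left panel HO1 knockout and combined arrays lie to the right of control and HO2 knockdown, while in the right panel control arrays lie with HO1 knockout for genes such as Bhmt and with HO2 knockdown for Obp2a and Fmr1.

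Genes of phagocyte function followed the macrophage markers. Of 16 Toll-like receptors and adaptors, the sensors of microbial molecules, 11 were higher and 1, the adaptor gene Ticam1 (-0.20), lower (median 0.67). The lower count was 0 without HO1 knockout replicate 1 or either HO2 knockdown replicate. The endosomal receptor gene Tlr7 read 9.64 and 9.61 in HO1 knockout against 5.43 and 5.55 in HO2 knockdown (4.13, adjusted p = 2.62e-14), and Tlr13 (4.01) and Tlr8 (3.67) differed similarly. The HO2 knockdown signal of Tlr7 lay below the array medians, where background makes up part of it, so the size is uncertain. This holds as well for Adgre1, Mrc1, Mmp8 and other genes below the medians in HO2 knockdown. Tlr4 (0.13) and Tlr3 (0.02) did not pass. Of 15 lysosomal proteases and subunits of the phagocyte oxidase 10 were higher and 1, Ctse (-0.32), lower (median 0.65). The higher ones included the cathepsin gene Ctss (4.16), the oxidase genes Cybb (3.28), Cyba (2.23) and Ncf1 (2.15), and Ctsb (0.82). Ctsl (0.01) and Ctsa (-0.01) did not pass. Of 10 genes of MHC class II presentation 5 were higher and 0 lower, against 15.6% and 21.0% of all genes. They were Ctss, already counted above, Cd74, the invariant chain (1.16), the costimulatory genes Cd86 (0.68) and Cd80 (0.59), and H2-Eb1. With arrays centred on their medians H2-Eb1 did not pass, and the count was 4. H2-Ab1 (0.12) and Ciita (0.09) did not pass.

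Chemokines of the Ccl family, which attract monocytes and lymphocytes, were higher for 9 of 16 and lower for 1, Ccl25 (-0.27), with a median of 0.87. The lower count was 0 without either HO1 knockout replicate, HO2 knockdown replicate 1 or either combined array. Ccl3 read 13.03 and 13.01 in HO1 knockout, 8.78 and 8.89 in HO2 knockdown, and 10.20 and 10.34 in control. The direct difference of 4.19 (adjusted p = 2.00e-16) thus combined 2.75 for HO1 knockout against control with -1.44 for HO2 knockdown against control. Ccl6 (4.19), Ccl12 (2.79) and Ccl4 (2.13) had most of their difference on the HO1 knockout side, with 3.61, 2.67 and 1.85 against control. For Ccl7 (2.02) and Ccl20 (1.81) the values against control were -0.20 and -0.86 in HO1 knockout and -2.22 and -2.67 in HO2 knockdown, and Ccl2 (0.70) stood at 0.03 and -0.67.

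NF-kB transcription factors answer cytokines and microbial products. Of 25 inflammatory genes of this pathway 24 were higher (15.6% of all genes) and 1 lower (21.0%) in HO1 knockout, with a median of 0.58. Against control their median was 0.00 in HO1 knockout, where 6 were higher (background 5.62%) and 6 lower (7.20%), and -0.53 in HO2 knockdown, where 1 was higher (16.5%) and 20 lower (16.7%). Nos2, the inducible nitric oxide synthase, read 9.32 and 9.26 in HO1 knockout, 7.54 and 7.87 in HO2 knockdown and 10.10 and 10.24 in control. It was thus below control in both groups and lower in HO2 knockdown, by 1.58 (adjusted p = 3.34e-08). The adhesion gene Vcam1 was likewise below control in both groups, at 10.14 and 10.21 against 9.52 and 9.30, with 11.45 and 11.47 in control. The cytokine gene Il1a had the largest difference of the list, at 10.14 and 10.00 against 5.93 and 6.01 (4.10), and its control arrays read 7.08 and 7.73. The feedback inhibitor genes Tnfaip3 (0.81) and Nfkbia (0.60), the adhesion gene Icam1 (0.76) and Sod2 (0.61) also passed upward. So did Tnf (1.05), Csf2 (1.19) and the receptor antagonist gene Il1rn (1.03). Bcl3, an atypical inhibitor of the pathway, passed downward (-0.25). Il6 and Nfkb2 did not pass with arrays centred on their medians, and the list's higher count fell without HO1 knockout replicate 1.

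Chemokines of the Cxcl family divided by member, 10 of 15 being higher and 5 lower (median 0.46). Cxcl5, a neutrophil attractant, read 11.94 and 12.11 in HO1 knockout, 8.38 and 8.53 in HO2 knockdown and 12.05 and 12.17 in control. HO1 knockout and control overlapped in range, and the difference of 3.56 (adjusted p = 1.99e-14) lay on the HO2 knockdown side. Cxcl3 read 10.35 and 10.46 against 7.13 and 7.12, with 10.10 and 10.27 in control, which HO1 knockout exceeded by 0.22. Cxcl2 (2.64) and Cxcl1 (1.27), the other neutrophil attractants of the cluster, stood at 0.20 and -0.02 in HO1 knockout against control and at -2.43 and -1.29 in HO2 knockdown against control. Pf4 was the exception among the large differences, with 4.04 and -0.69. Cxcl12, which retains stem cells and lymphocytes in their niches, was lower in HO1 knockout, at 7.69 and 7.83 against 9.12 and 9.13 (-1.37), as were Cxcl17 (-0.87), the interferon-induced gene Cxcl10 (-0.82) and the B cell attractant gene Cxcl13 (-0.50).

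The promoters of Cxcl1, Cxcl2 and Cxcl3 are shown because these neighbouring genes differed together. Sequences are from RefSeq (GRCm38.p6), 5′ to 3′ on the gene's strand, at chr5:90891135-90891214 (+ strand), chr5:90903769-90903848 (+ strand) and chr5:90785991-90786070 (+ strand), and capitals mark the NF-kB motif, which matches each of them on both strands with overlap.
Cxcl1: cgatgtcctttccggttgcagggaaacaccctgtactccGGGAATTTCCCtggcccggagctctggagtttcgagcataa
Cxcl2: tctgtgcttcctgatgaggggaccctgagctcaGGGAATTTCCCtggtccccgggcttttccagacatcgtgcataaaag
Cxcl3: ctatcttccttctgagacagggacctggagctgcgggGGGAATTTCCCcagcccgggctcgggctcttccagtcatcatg
Within the 250 bases before the start, searched on both strands, the NF-kB motif was present in 4.15% of 15562 promoters of genes tested. It was present in 8 of 20 promoters of the NF-kB list and in 4 of 11 of the Cxcl list, the fourth being that of Cxcl10, which was lower in HO1 knockout. A match describes letters and is not a binding site.

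Interferon-stimulated genes did not move as a block. Of 22, 6 were higher and 7 lower in HO1 knockout than in HO2 knockdown, against 15.6% and 21.0% of all genes. Their median was -0.03. The higher count was 4 with arrays centred on their medians, and the lower count fell without HO1 knockout replicate 1. Against control the medians were -0.35 in HO1 knockout and -0.45 in HO2 knockdown, so the 2 groups lay on the same side of control. Oas2 (1.08) and the exonuclease gene Isg20 (0.64) were higher, and Ifit2 (-0.54) and Oasl1 (-0.35) were lower.

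Cell cycle and DNA replication genes were higher in HO1 knockout without exception, 27 of 27, with a median of 0.96. Their median was -0.09 in HO1 knockout against control, where 3 were higher (background 5.62%) and 3 lower (7.20%), and -1.03 in HO2 knockdown against control, where 27 were lower (16.7%). Mki67, a marker of dividing cells, read 10.63 and 10.64 in HO1 knockout, 9.02 and 8.93 in HO2 knockdown, and 10.39 and 10.47 in control (direct difference 1.66, adjusted p = 5.78e-12). Top2a, the topoisomerase that untangles chromosomes, read 9.73 and 9.62 against 8.21 and 8.26. Cdk1, the kinase that starts mitosis, read 10.62 and 10.46 against 9.16 and 9.29. In each case HO1 knockout lay near control and HO2 knockdown lay below it, and the combined arrays, at 8.87 and 8.96 for Top2a, lay between. The mitotic kinase genes Aurkb (1.60), Bub1 (1.58) and Plk1 (1.42), the cyclin gene Ccna2 (1.56), the replicative helicase genes Mcm6 (1.41), Mcm2 (1.02) and Mcm5 (1.00) and the nucleotide reductase gene Rrm2 (1.39) followed. Mcm5 lies 8.9 kb from Hmox1 and was 0.06 from control in HO1 knockout. Summed linear signal over the list was 31441 to 32512 in HO1 knockout, 16481 to 16687 in HO2 knockdown and 32661 to 33408 in control.

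Promoters of Top2a and Cdk1 are printed because CCAAT boxes, read as CCAAT or, on the other strand, ATTGG, recur in this list. They are from RefSeq (GRCm38.p6), at chr11:99024230-99024429 (- strand) and chr10:69352933-69353032 (- strand), 5′ to 3′ on the gene's strand, with each CCAAT box in capitals on either strand.
Top2a: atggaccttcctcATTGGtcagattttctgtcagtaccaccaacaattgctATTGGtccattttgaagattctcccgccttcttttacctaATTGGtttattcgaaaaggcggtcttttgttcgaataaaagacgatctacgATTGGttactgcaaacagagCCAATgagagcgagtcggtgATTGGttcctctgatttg
Cdk1: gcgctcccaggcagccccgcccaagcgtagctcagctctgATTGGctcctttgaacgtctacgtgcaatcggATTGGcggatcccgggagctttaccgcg
CCAAT was found in 16 of 20 promoters of the cell cycle list and in 35.5% of all 15562. The cell cycle homology region, searched as TTTGAA on both strands, was found in 6 of 20 against 13.7%, including Top2a and Cdk1. CCAAT was also found in 12 of 13 promoters of the cholesterol list described next.

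Cholesterol synthesis genes, which turn acetyl-CoA into sterols, were higher in HO1 knockout for 14 of 16 and lower for 0, with a median of 0.41. Insig1, the sterol sensor that holds back the pathway's activator, read 10.47 and 10.37 in HO1 knockout, 9.38 and 9.37 in HO2 knockdown and 9.94 and 9.98 in control (1.04, adjusted p = 5.25e-09). It thus lay above control in HO1 knockout and below it in HO2 knockdown. Cyp51 (0.85), Fdps (0.77), Sqle (0.73) and the activator gene Srebf2 (0.67) passed as well, and Mvk (0.09) and Nsdhl (-0.09) did not. The sterol regulatory element, searched as 1 fixed sequence on both strands, was in 0.0386% of promoters and in 0 of 13 of this list, which says only that these letters are not in the window. Lipogenesis genes were mixed, 4 of 17 being higher and 8 lower, against 15.6% and 21.0% of all genes. The desaturase gene Scd2 stood at 1.37, and the carboxylase gene Acacb (-1.46) and the phosphatidate phosphatase gene Lpin1 (-0.93) were lower. Fasn (0.11) and Srebf1 (0.06) did not pass.

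Glycolysis genes were higher in HO1 knockout for 9 of 18 and lower for 2, Slc2a2 and Pklr (-0.20), with a median of 0.22. Among all genes 15.6% were higher and 21.0% lower. The lower count was 1 without HO1 knockout replicate 2 or HO2 knockdown replicate 1. The lactate exporter gene Slc16a3 (1.16), the hexokinase genes Hk3 (0.99), of leukocytes, and Hk2 (0.68), Pfkl (0.66), Ldha (0.45) and Pgk1 (0.45) were higher. The hepatocyte glucose transporter gene Slc2a2 went the other way, at 7.84 and 7.62 in HO1 knockout against 9.89 and 9.61 in HO2 knockdown (-2.02, adjusted p = 1.80e-09), with 7.65 and 7.86 in control.

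Hepatocyte genes were lower in HO1 knockout than in HO2 knockdown. Of 23 identity markers 1 was higher and 19 lower, with a median of -0.59. Against control the median was 0.34 in HO1 knockout, where 16 were higher (background 5.62%) and 1 lower (7.20%), and 1.03 in HO2 knockdown, where 21 were higher (16.5%) and 1 lower (16.7%). Both groups therefore lay above control, HO2 knockdown further. Cps1, the first enzyme of the urea cycle, read 10.95 and 11.11 in HO1 knockout, 13.27 and 13.24 in HO2 knockdown, 10.17 and 10.36 in control and 13.32 and 13.36 in the combined arrays (direct difference -2.22, adjusted p = 1.69e-13). The differences were -0.51 for albumin (Alb), -0.59 for transthyretin (Ttr), -0.58 for the transcription factor gene Hnf4a and -2.68 for Hrg. Ambp, a plasma protease inhibitor precursor, was the member that was higher (0.70), and Hpx (0.03), Apob (-0.11) and Asgr1 (-0.11) did not pass. The macrophage list moved in the opposite direction in this comparison, with the summed signals given above, and its part in the hepatocyte values was not tested.

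The plot of list members covers 22 of the 43 gene lists, picked by hand. Its metabolic lists had medians below 0 apart from cholesterol synthesis (0.41). Metabolic lists left out of the plot include glycolysis and glucose uptake (0.22), lipogenesis (-0.13), heme synthesis (-0.13) and retinoid metabolism (-0.26).

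**Figure D3:**
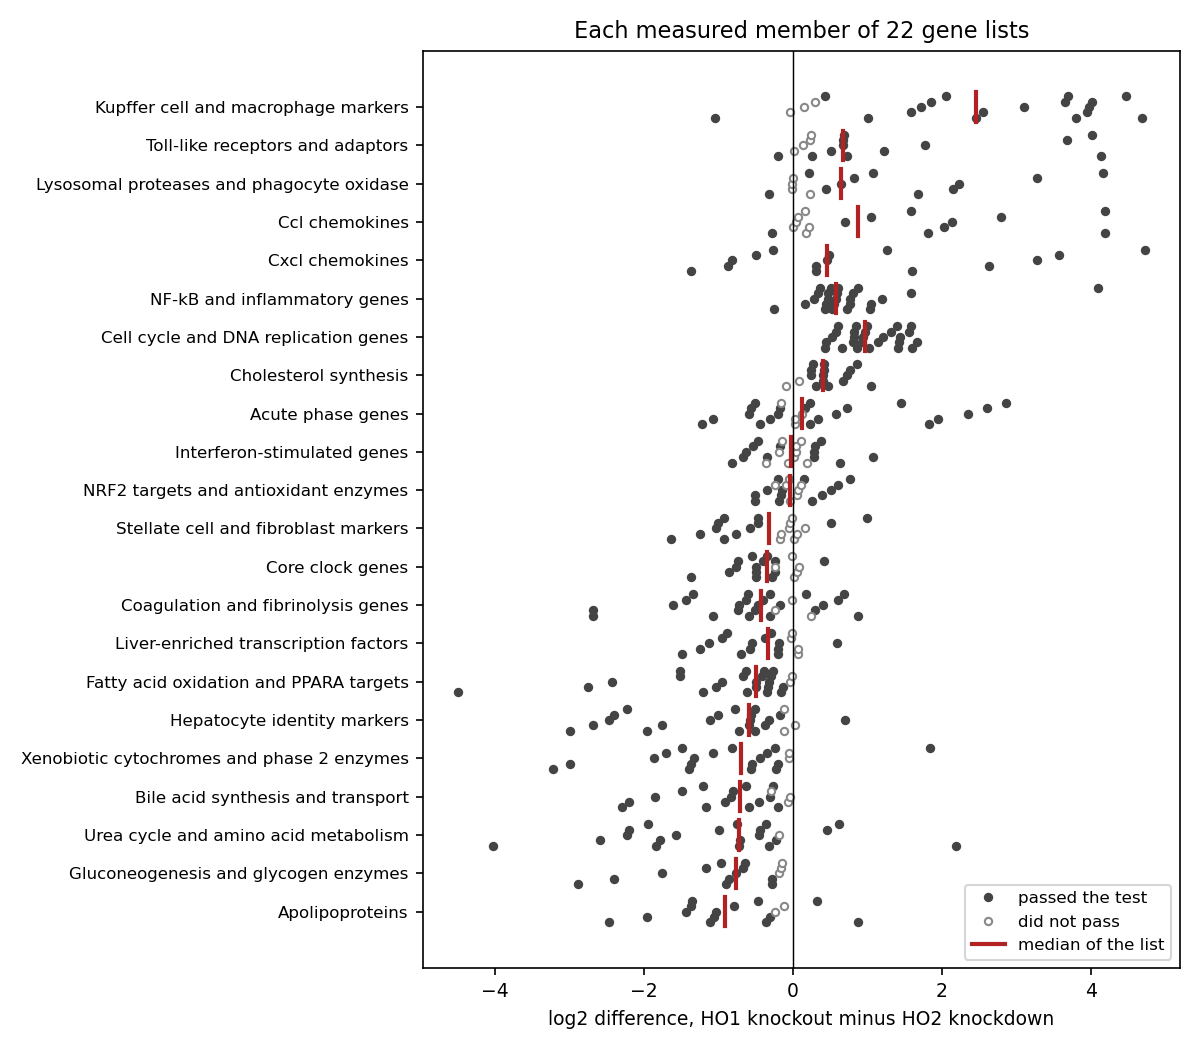
Log2 difference, HO1 knockout minus HO2 knockdown, of each measured member of 22 gene lists, one point a gene, filled where limma's adjusted p was under 0.05, with a red line at the list's median. Medians run from 2.46 for macrophage markers to -0.91 for apolipoproteins, and all 27 cell cycle genes lie to the right of 0.

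Enzymes of glucose production were lower for 12 of 15 and higher for 0 (median -0.77). G6pc, which releases free glucose, read 7.48 and 7.08 in HO1 knockout against 10.27 and 10.05 in HO2 knockdown (-2.88, adjusted p = 2.16e-11). Pck1, the enzyme that commits to gluconeogenesis, read 7.57 and 7.45 against 10.05 and 9.76 (-2.39). Control arrays read 7.23 and 7.01 for G6pc and 7.81 and 7.44 for Pck1, overlapping with HO1 knockout for both. The glycogen synthase gene Gys2 (-1.17), the regulators Foxo1 (-0.97) and Ppargc1a (-0.90) and the glucose 6-phosphate transporter gene Slc37a4 (-0.85) were also lower, and Fbp1 (-0.16) and Pygl (-0.14) did not pass.

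Urea cycle and amino acid enzymes were lower for 17 of 21 and higher for 3, Arg1, Hal (0.62) and Oat (0.46), with a median of -0.72. Bhmt, which remethylates homocysteine with betaine, read 8.03 and 7.54 in HO1 knockout and 11.88 and 11.73 in HO2 knockdown (-4.02, adjusted p = 1.75e-12), with 7.72 and 7.33 in control. The tryptophan dioxygenase gene Tdo2 (-2.59), the tyrosine-catabolic genes Hpd (-2.19) and Hgd (-1.57), the methionine adenosyltransferase gene Mat1a (-1.83) and the ornithine transcarbamylase gene Otc (-1.79) were lower. Arg1, the arginase of the urea cycle and also of some activated macrophages, was higher, at 11.39 and 11.19 against 9.14 and 9.05 (2.19), with control at 7.73 and 7.30. It differed in direction from its list, and stood above control by 3.77 in HO1 knockout and by 1.58 in HO2 knockdown.

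Bile acid genes were lower for 15 of 18 and higher for 0 (median -0.71). The repressor gene Nr0b2 (SHP) stood at -2.28, the phospholipid exporter gene Abcb4 at -2.19, the bile acid uptake carrier gene Slc10a1 at -1.85 and the export pump gene Abcb11 at -1.16. Cyp7a1, the rate-limiting enzyme of bile acid synthesis, stood at -0.63 and Cyp8b1 at -0.83. Apolipoproteins, the protein shells of plasma lipids, were lower for 12 of 16 and higher for 2 (median -0.91), with Apoa2 at -2.46, Apoa1 at -1.96 and Apoc3 at -1.44. The higher ones were Apobec1, which edits the Apob transcript (0.88), and Apon (0.32), and their count was 1 without HO1 knockout replicate 2 or HO2 knockdown replicate 2.

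Cytochromes and phase 2 enzymes of drug metabolism were lower for 17 of 20 and higher for 1 (median -0.69). Cyp2b10, a target of the xenobiotic receptor CAR, read 7.90 and 8.03 in HO1 knockout and 11.17 and 11.19 in HO2 knockdown (-3.22, adjusted p = 2.09e-14). Cyp3a11, a target of the receptor PXR, read 6.05 and 5.94 against 8.75 and 9.21 (-2.98). The receptor genes themselves were lower by a smaller amount, PXR (Nr1i2) at -1.49 and CAR (Nr1i3) at -0.55. Cyp1b1, an extrahepatic cytochrome, was the member that was higher, at 9.01 and 8.68 against 7.16 and 6.85 (1.84), with 8.64 and 8.93 in control. Fatty acid oxidation genes and targets of PPARA were lower for 22 of 24 and higher for 0 (median -0.50). Cyp4a31, a fatty acid hydroxylase, read 4.54 and 4.63 in HO1 knockout against 8.78 and 9.39 in HO2 knockdown (-4.50, adjusted p = 1.79e-10). Its control arrays read 4.96 and 5.86. Its HO1 knockout signal lay below the array medians, where background makes up part of the signal, so the size of the difference is uncertain. The same limit applies to Cyp3a11, Cyp4a10, Cyp2a12, Mug1, G6pc, Pck1, Phf11c and other genes below the medians in HO1 knockout. Members of the Cyp4a family share sequence, so the Cyp4a31 value may include signal from Cyp4a10 (-2.75) or Cyp4a14 (-1.03). The carrier gene Fabp1 (-2.43), Ehhadh (-1.51), Pdk4 (-1.51) and Ppara itself (-0.95) were lower, and Cpt1a, the gate of mitochondrial import, stood at -0.41.

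Transcription factors enriched in liver were lower for 13 of 18 and higher for 1 (median -0.34), and the lower count fell to 8 without HO1 knockout replicate 1. Besides Nr1i2 and Ppara, Creb3l3 (-1.24), Prox1 (-1.13) and Onecut1 (-0.89) were lower, and Cebpb, which serves the acute phase, was higher (0.59). A palindromic motif of the liver factor HNF1 was found in 0 of 15562 promoters in this window. Glucocorticoid targets, of interest because every group had met dexamethasone, were lower for 10 of 19 and higher for 4 (median -0.23). Among all genes 21.0% were lower and 15.6% higher. Tat (-1.75), Igfbp1 (-1.32), Klf9 (-0.54), Tsc22d3 (-0.54), Fkbp5 (-0.46) and Per1 (-0.35) were lower, Cebpd (0.68) and Mt1 (0.24) were higher, and the receptor gene Nr3c1 (-0.0031) did not pass.

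Among the 15 largest differences downward, Obp2a and Fmr1 followed a different layout from genes such as Bhmt. Obp2a, a lipocalin, read 7.73 and 7.30 in HO1 knockout, 11.99 and 11.93 in HO2 knockdown, 11.18 and 11.22 in control and 7.47 and 7.13 in the combined arrays (-4.44, adjusted p = 9.85e-14). Fmr1, an RNA-binding translational regulator, read 7.98 and 7.88, 10.72 and 10.69, 10.29 and 10.64, and 8.04 and 8.00 in the same order (-2.77). Both were low in the 2 groups of HO1-/- cells and high in the 2 groups of HO1+/+ cells. Setdb2, a histone methyltransferase, and its neighbour Phf11c were laid out as Bhmt was. Setdb2 read 7.92 and 7.91 in HO1 knockout against 11.02 and 10.85 in HO2 knockdown (-3.02), and Phf11c 7.53 and 7.42 against 11.15 and 11.06 (-3.63). Their combined arrays, at 10.45 and 10.49 and at 10.66 and 10.68, lay near HO2 knockdown, and their controls, from 7.58 to 8.16, near HO1 knockout. Bhmt, with 11.93 and 11.71 in the combined arrays, shared this layout. So did Cyp2b10, Cyp3a11, G6pc, Mug1, Acmsd, Cyp2a12 and Slc27a2. The remaining genes were the murinoglobulin gene Mug1 (-3.05), Acmsd of tryptophan catabolism (-3.02), Cyp2a12 (-2.74) and the fatty acid transporter gene Slc27a2 (-2.70), together with Cyp26a1.

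Retinoid metabolism genes, which store, activate and clear vitamin A, were lower for 9 of 17 and higher for 2, with a median of -0.26. Among all genes 21.0% were lower and 15.6% higher. Cyp26a1, the hydroxylase that clears retinoic acid and is itself induced by it, read 7.75 and 7.63 in HO1 knockout and 10.59 and 10.37 in HO2 knockdown (-2.79, adjusted p = 3.41e-12). Control lay between at 9.16 and 9.37, so Cyp26a1 was below control in HO1 knockout (-1.58) and above it in HO2 knockdown (1.22). Rarb, the retinoic acid receptor beta, read 10.13 and 10.17 against 11.20 and 11.11 (-1.002, adjusted p = 1.94e-09), and its control arrays, at 10.53 and 10.67, also lay between. Lrat, which esterifies retinol for storage, read 6.95 and 7.26 against 8.58 and 8.91 (-1.64). Cyp26b1 (-1.04), Aldh1a7 (-1.47), Dhrs3 (-0.68) and the carrier gene Rbp4 (-0.32) were lower, Rdh11 (0.36) and Rdh10 (0.22) were higher, and the synthesis gene Aldh1a2 (-0.26) did not pass. The higher count was 1 without HO1 knockout replicate 1 or HO2 knockdown replicate 2.

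The promoters of Cyp26a1 and Rarb are shown because both hold a retinoic acid response element of the direct repeat 5 (DR5) type. They are from RefSeq (GRCm38.p6), at chr19:37697708-37697807 (+ strand) and chr14:16575477-16575576 (- strand), 5′ to 3′ on the gene's strand, with the DR5 match in capitals.
Cyp26a1: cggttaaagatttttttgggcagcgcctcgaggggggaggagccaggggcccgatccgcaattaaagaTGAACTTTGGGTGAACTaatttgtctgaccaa
Rarb: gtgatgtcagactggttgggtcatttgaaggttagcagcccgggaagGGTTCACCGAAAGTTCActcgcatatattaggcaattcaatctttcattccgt
The DR5 motif, searched on both strands, was found in 10 of 15562 promoters (0.0643%) and in 2 of 15 of this list.

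Acute phase genes, which the liver secretes during inflammation, divided within the list: 12 of 25 were higher and 9 lower in HO1 knockout, with a median of 0.12. Orosomucoids and serum amyloids were higher. Orm2 read 10.84 and 10.87 in HO1 knockout, 7.92 and 8.07 in HO2 knockdown and 8.96 and 9.02 in control (2.86, adjusted p = 1.01e-13). Saa3 read 12.90 and 12.81 against 10.11 and 10.39, with 11.93 and 11.93 in control (2.60). For both genes control lay between the groups. Saa2 (2.35), Orm3 (1.95), Orm1 (1.83), Saa1 (1.45) and haptoglobin (Hp, 0.73) were higher too, and the Saa and Orm genes are close paralogs whose probes may cross-hybridise. The inter-alpha-trypsin inhibitor genes Itih3 (-1.22) and Itih4 (-1.08), the fibrinogen gene Fgg (-0.58), Agt (-0.57), Crp (-0.51) and Lbp (-0.44) were lower. Fgg read 11.20 and 11.35 in HO1 knockout, 11.84 and 11.87 in HO2 knockdown and 8.80 and 9.04 in control, so that both groups were above control. Against control the list's median was 0.92 in HO1 knockout, with 20 higher (background 5.62%) and 0 lower (7.20%), and 0.11 in HO2 knockdown, with 12 higher (16.5%) and 4 lower (16.7%).

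**Figure D4:**
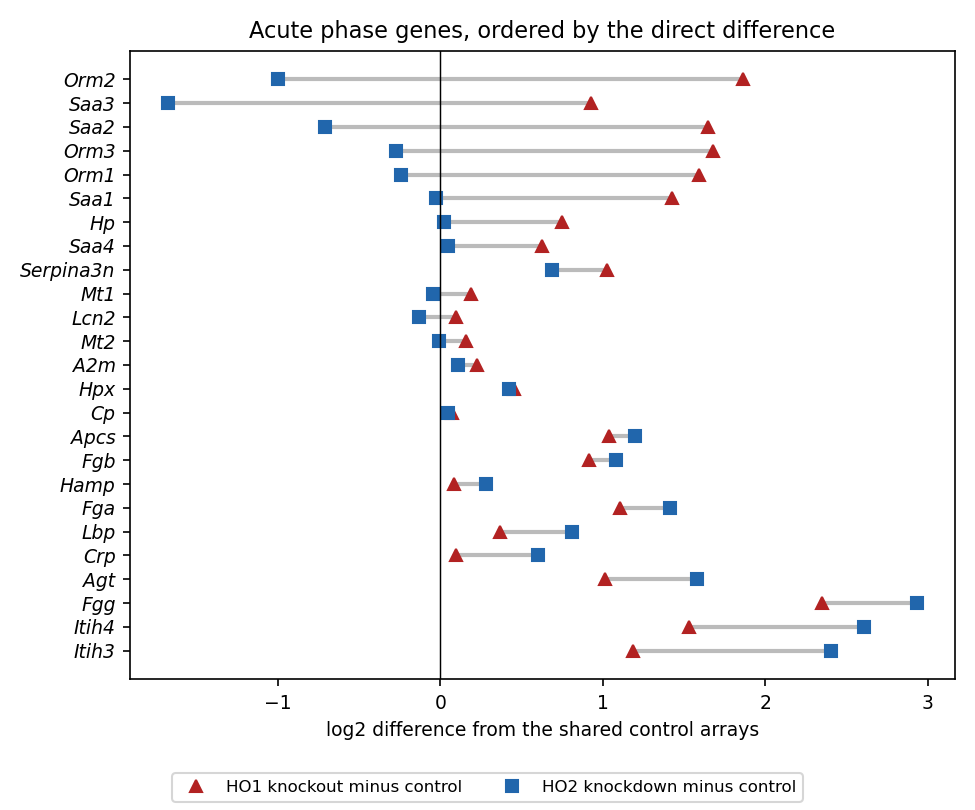
Log2 difference from the shared control arrays of each acute phase gene in HO1 knockout (triangles) and HO2 knockdown (squares), joined by a line whose length is the direct difference, in the order of that difference. Orm and Saa genes at the top lie to the right of 0 in HO1 knockout and at or left of 0 in HO2 knockdown apart from Saa4 (0.04), whereas Itih3, Itih4 and Fgg at the bottom lie right of 0 in both.

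Coagulation and fibrinolysis genes were lower for 17 of 26 and higher for 6 (median -0.43), against 21.0% and 15.6% of all genes. Plasminogen (Plg, -2.67), antiplasmin (Serpinf2, -1.60), F13b (-1.44), F12 (-1.34) and F9 (-1.08) were lower. The plasminogen activator genes Plat (0.87) and Plau (0.69), F7 (0.60) and thrombomodulin (Thbd, 0.41) were higher. Complement genes were higher for 9 of 23 and lower for 6, against 15.6% and 21.0% of all genes. Their lower count fell without HO1 knockout replicate 1 or HO2 knockdown replicate 1. The higher ones were the C1q genes, C3ar1 and the receptor and regulator genes C5ar1 (3.00), properdin (Cfp, 3.02), Cd55 (1.54) and Cfb (0.86), and C9 (-1.10) and Masp2 (-0.86) were lower. Of these, the C1q genes are also on the macrophage list.

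Core clock genes were lower in HO1 knockout than in HO2 knockdown for 13 of 19 and higher for 1, with a median of -0.35. Against control their median was -0.06 in HO1 knockout, with 1 higher (background 5.62%) and 1 lower (7.20%), and 0.22 in HO2 knockdown, with 12 higher (16.5%) and 1 lower (16.7%). All arrays were taken at a common time after dexamethasone, so the values are levels at that time and say nothing of rhythm. Nr1d1, the gene of REV-ERB alpha, a repressor that heme binds, read 9.71 and 9.92 in HO1 knockout, 11.20 and 11.14 in HO2 knockdown, 9.87 and 9.81 in control and 10.56 and 10.56 in the combined arrays. HO1 knockout overlapped control, and the direct difference was -1.36 ± 0.069 (adjusted p = 2.19e-10). Cry2, a repressor of CLOCK and BMAL1, read 9.16 and 9.15 against 9.99 and 10.03 (-0.85, adjusted p = 6.90e-08), with 9.05 and 9.01 in control.

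The PAR bZIP output factors Tef (-0.76), Dbp (-0.73) and Hlf (-0.55) were lower, and their antagonist Nfil3, which binds the same D-box element, was the clock gene that was higher, at 9.68 and 9.83 against 9.36 and 9.32 (0.41, adjusted p = 0.000176). The activator gene Clock stood at -0.50, the repressor genes Ciart and Bhlhe40 at -0.50 and -0.49, Nr1d2, encoding REV-ERB beta, at -0.40, Per1 at -0.35 and the kinase gene Csnk1d at -0.24. Arntl, encoding BMAL1, passed at -0.28 and Rora at -0.24. Arntl no longer passed without HO1 knockout replicate 1 (-0.27, adjusted p = 0.054) or HO2 knockdown replicate 1 (-0.25, adjusted p = 0.0823), nor did Rora (-0.18, adjusted p = 0.0726, and -0.17, adjusted p = 0.0962). Per3 (-0.24), Per2 (-0.01), Cry1 (0.02), Csnk1e (0.06) and Bhlhe41 (0.08) did not pass. Clock output and E-box targets in liver were lower for 17 of 23 and higher for 2 (median -0.54), with Ppara and Gys2 among them. Core clock genes are counted again in this list, including Nr1d1, Nr1d2, Dbp, Tef, Ciart, Per1, Per3 and Bhlhe41, so its count is not separate from theirs. The cell cycle kinase gene Wee1 (0.46) and Usp2 (0.27) were higher, a count that was 1 without HO1 knockout replicate 2 or either HO2 knockdown replicate.

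**Figure D5:**
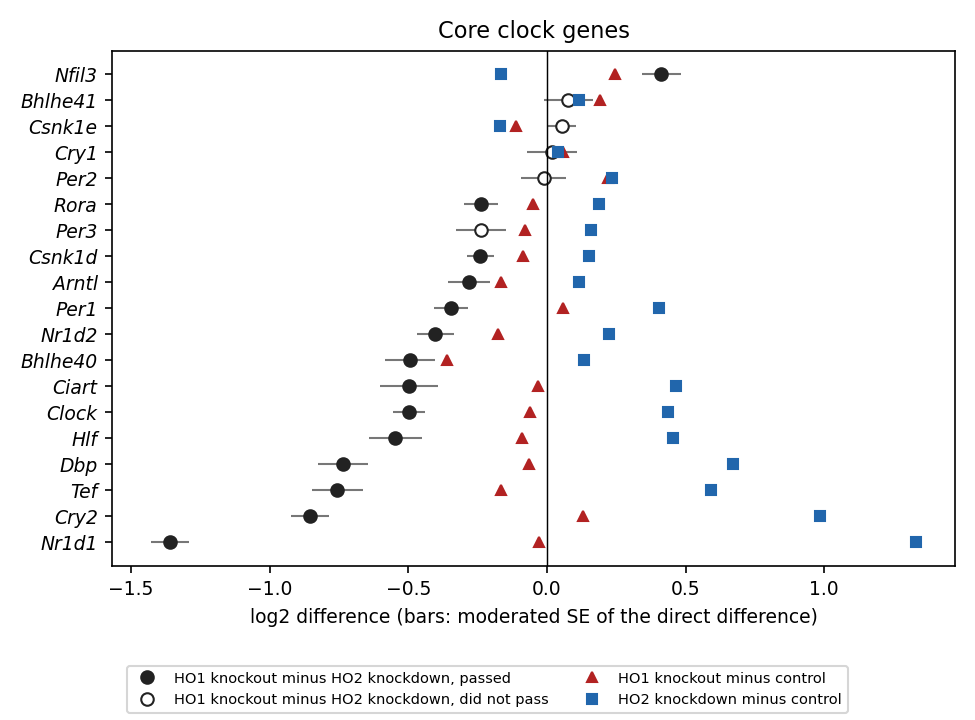
Log2 differences of the 19 core clock genes in the direct comparison (circles with bars of 1 moderated SE, filled where the adjusted p was under 0.05), in HO1 knockout against control (triangles) and in HO2 knockdown against control (squares). Nr1d1 and Cry2 show the largest direct differences, -1.36 and -0.85, and for both the HO1 knockout triangle lies near 0 while the HO2 knockdown square lies at 1.33 and 0.98.

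The E-box, searched as CACGTG, is the element of CLOCK and BMAL1, and it was found in 5 of 16 promoters of core clock genes (Bhlhe41, Ciart, Cry1, Per1 and Tef) against 7.04% of all promoters. Of these genes Ciart, Per1 and Tef were lower, and Bhlhe41 and Cry1 did not pass. Ciart, a repressor of CLOCK and BMAL1, is shown because its window holds 3 such boxes. It read 7.40 and 7.55 in HO1 knockout and 7.87 and 8.07 in HO2 knockdown (-0.50, adjusted p = 0.00119). The sequence is from RefSeq (GRCm38.p6), chr3:95882259-95882358 (- strand), 5′ to 3′ on the gene's strand, with E-boxes in capitals.
Ciart: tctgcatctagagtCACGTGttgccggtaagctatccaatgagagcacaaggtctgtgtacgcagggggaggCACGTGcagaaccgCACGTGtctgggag
The D-box, searched as TTATGTAA, was found in 1 of 16 core clock promoters (Per3) and in 0.797% of all.

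Heme synthesis enzymes were lower for 4 of 8 and higher for 2, against 21.0% and 15.6% of all genes. Alas1, the rate-limiting enzyme, which heme represses, read 11.52 and 11.52 in HO1 knockout and 12.17 and 12.15 in HO2 knockdown, with 11.82 and 11.76 in control (-0.64, adjusted p = 1.31e-08). Control lay between the groups. Fech, which inserts iron into the ring as the last step, read 10.44 and 10.43 against 11.03 and 11.06 (-0.61). Uros (-0.24) and Ppox (-0.23) were the other lower members, and Alad, an early enzyme (0.28), and Cpox (0.24) the higher ones. The lower count was 2 without any one of the 4 compared arrays, and the higher count was 1 without either HO1 knockout replicate or HO2 knockdown replicate 2.

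Of 13 heme and hemoglobin carriers 2 were higher and 5 lower, against 15.6% and 21.0% of all genes. The lower count fell to 3 without HO2 knockdown replicate 2. The hemoglobin scavenger gene Hp (0.73) and the heme exporter gene Flvcr1 (0.64) were higher, the heme and folate carrier gene Slc46a1 (-0.51) and the exporter gene Abcg2 (-0.38) lower, and the heme scavenger gene Hpx (0.03) did not pass. Among 19 iron genes 2 were higher and 7 lower, again against 15.6% and 21.0% of all genes. The iron exporter ferroportin (Slc40a1) read 10.74 and 10.65 against 11.43 and 11.47 (-0.76, adjusted p = 1.38e-08). The iron sensor gene Tfr2 read 8.96 and 8.94 against 9.67 and 9.55 (-0.66), and Bmp6, which induces hepcidin, stood at -0.46. Id1, a target of BMP signalling (0.65), and the transferrin receptor gene Tfrc (0.25) were higher, a count that was 1 without HO1 knockout replicate 1 or HO2 knockdown replicate 2, and the ferritin genes Fth1 (-0.02) and Ftl1 (0.22) did not pass. Of 12 heme-binding regulators 8 were lower and 0 higher (median -0.39), against 21.0% and 15.6% of all genes. The lower count fell without HO1 knockout replicate 1. Lower members included Cbs (-0.70), the heme-regulated kinase gene Eif2ak1 (-0.48) and the guanylate cyclase subunit gene Gucy1a1 (-0.66). Nr1d1, Nr1d2 and Clock, already counted among the core clock genes, were lower members too. Bach1 (0.10), the heme-sensing repressor of Hmox1, did not pass.

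Stress lists showed no common direction. The shares of all genes, for the counts that follow, were 15.6% higher and 21.0% lower. NRF2 targets and antioxidant enzymes, among which Hmox1 itself is usually counted, were higher for 6 of 20 and lower for 7, with a median of -0.04, the lower count falling to 4 without the mean-variance trend. The cystine carrier gene Slc7a11 (0.77), Abcc4 (0.51) and Sod1 (0.40) were higher, Osgin1 (-0.51), Sod3 (-0.51) and Txnrd1 (-0.35) were lower, and Nqo1 (-0.25) did not pass. Genes of the integrated stress and unfolded protein responses were higher for 6 of 22 and lower for 8, and the higher count fell to 2 with arrays centred on their medians, without the mean-variance trend or without HO2 knockdown replicate 1, and to 3 without HO1 knockout replicate 1. Sesn2 (-0.88) and Trib3 (-0.47) were lower, and the regulators Atf4 (-0.05) and Ddit3 (-0.06) did not pass. Targets of p53 were higher for 1 of 13 and lower for 6, with Sesn1 at -0.65, Trp53inp1 at -0.51 and Pmaip1 at 0.42, and Mdm2 (-0.11) did not pass. Collagens and matrix proteases were higher for 9 of 24 and lower for 3. Apart from Mmp8 and Mmp9, the macrophage elastase gene Mmp12 (2.90), the inhibitor genes Timp1 and Timp2 (0.53) and the crosslinking enzyme gene Lox (0.50) were higher, and Col18a1 (-0.79), Timp3 (-0.22) and Mmp10 (-0.28) were lower, Mmp10 no longer passing without any one of the 4 compared arrays.

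The element of the myeloid factor PU.1, searched as GAGGAAGT, was found in 1 of 16 promoters of the macrophage list (C1qc) and in 2.17% of all promoters. It was also found in 5 of 13 promoters of the neutrophil list, of which Mmp8 and S100a8 were higher and Elane, Ly6g and Mpo did not pass. Several genes named here stand on more than 1 list, such as Nr1d1, Ppara, Pck1, Mmp8 and the C1q genes, so the lists are not independent of each other.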

How the data were processed

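Gene expression was measured on 8 Affymetrix whole-transcript arrays, 2 for each of 4 groups, with 300 ng of total RNA as input, per the labels' protocols. Files hold log2 signals per probe set as deposited, to which the authors applied RMA (affy, R 2.15.0, per the submitters' processing notes). A chip definition file and a genome build are not named in these notes. RMA shares strength across arrays and compresses differences of dim genes. Of 34760 probe sets, 21640 with exactly 1 symbol in the platform table were used (1321 had several, 11799 none), and the brightest per gene was kept (953 genes had several), leaving 19938 genes with no filter on low signal. RefSeq gave positions for 19855 of them and promoters for 15562. Names in the platform table can be old.

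Log2 values were fitted with limma 3.58.1 in R 4.3.3. The model had a mean for each of the 4 groups, 4 residual and 11.2 prior degrees of freedom, and a mean-variance trend. Tests were two-sided with Benjamini-Hochberg adjustment over all 19938 genes, called under 0.05. On simulated data for the direct comparison, 11.5%, 76% and 97% of genes changed by 0.25, 0.5 and 1 were recovered (200 genes a size), and unchanged genes made up 4.65% of the calls. The simulation changed a far smaller share of genes than the 36.6% called in these data, so its rates may not carry over. Of 824 entries in 43 gene lists, 751 were analysed. Members and lists were chosen with earlier results of these data known. The rule for naming covered the heme oxygenase and biliverdin genes, the core clock genes, the 15 largest differences in each direction (predicted genes and small RNAs left out), the 5 members of each list with the lowest p and called neighbours of Hmox1. The text gives some of these, and other list members were named after their values were seen. Motifs were searched on both strands in the 250 bases before each start. Alternatives covered the variance model, samples fitted, array weights, normalization, dim genes, probe sets, thresholds, the replicate block and each array left out.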

Additional observations from a re-analysis of the deposited data

How the results depend on the processing

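The direct comparison called 7295 genes, and between 5412 and 8364 when each array was left out in turn. It called 6802 without the trend, 8000 with only the 4 arrays compared, 7075 after median-centring and 5496 at an adjusted p under 0.01. Requiring at least 2-fold left 687. The share of calls that were higher in HO1 knockout was 42.58%, 34.57% after median-centring and 48.82% after quantile normalization once more. HO1 knockout against control called 2557 genes, 1575 at an adjusted p under 0.01, 306 at 2-fold, 1704 without HO1 knockout replicate 1, and 1704 to 2937 over the arrays left out. HO2 knockdown against control called 6620, 394 at 2-fold, and 4543 to 8151 over the arrays left out. Groups share replicate numbers, and deviations of same-numbered arrays correlated at -0.2611 to 0.1217 (1 of 6 pairs over 0.1). With 2 arrays a group, this cannot decide whether same-numbered arrays share a preparation. With the replicate block the direct comparison called 7098. Of 542 called genes among the 743 checked, 109 lost the call in at least 1 of 16 alternatives and 0 changed sign. Of the 503 tested in all 16, 411 kept it throughout. The other 39 were not tested with dim genes left out, and 22 of them kept it in the rest. For 3 called genes, Clec4g, Hk1 and Pdia4, single-symbol probe sets differed in sign. With a lone array in a group, its spread was assumed to be that of the other groups. The limits are 2 arrays a group, background signal in dim probe sets, and a knockout and a knockdown that differ in kind.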
